A study of Mus musculus with 2 samples.

Results

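The cells described here are the roof plate-like dorsal midline barcodes of a mouse embryonic brain single-cell RNA data set: 489 of 37628 cell barcodes in 2 libraries. A barcode was a member when it held at least 1 UMI (a unique molecular identifier, which counts 1 captured RNA molecule) in at least 2 of 7 dorsal genes, Lmx1a, Wnt1, Wnt3a, Gdf7, Rspo1, Msx1 and Bmp6. It also had to hold a UMI in at least 1 of 4 neural genes, Sox2, Pax3, Zic1 and Msi1, and no UMI of 6 genes of other cells, Pdgfra, Epcam, Trp63, Cnpy1, Slc17a6 and Gad2. The control library held 209 members and the NTD library 280. These 17 genes chose the members, so their values are given as a description and support nothing.

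The study asked how a block of folate metabolism changes gene expression in embryos whose neural tube does not close. The NTD (neural tube defect) library came from brain of embryos whose mothers ate a low-folate diet and received 1.5 mg/kg of the folate antagonist methotrexate (MTX) into the abdominal cavity at gestational day 7.5. These embryos were small and delayed, with hindbrain malformations and spina bifida. The control library is labelled normal saline and came from normal embryos with closed neural tubes, whose mothers' diet is not given in the sources used here. Embryos were examined from embryonic day 9.5 to 10.5. The labels give neither the strain nor the number of embryos in each library. They call each library 1 sample, so no comparison between the groups has a replicate check.

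The roof plate is the strip of cells along the dorsal midline of the neural tube. It forms where the neural folds meet, and it secretes BMP and Wnt proteins that pattern the dorsal neural tube. Lmx1a is a transcription factor that specifies it, Gdf7 and Bmp6 are BMP ligands, Wnt1 and Wnt3a are Wnt ligands, Rspo1 strengthens Wnt signalling, and Msx1 is a transcription factor that responds to BMP. In the forebrain the dorsal midline gives rise to the cortical hem and, with the hindbrain midline, to choroid plexus. Lmx1a is also active in the floor plate of the midbrain, and Msx1 and Bmp6 in other tissues.

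Members were set against the neural barcodes of the same libraries, those with a neural gene and none of the 6 excluded genes, which numbered 6622 in the control and 8491 in the NTD library. Of these, 5379 and 6699 held no UMI of any dorsal gene and are called the other neural barcodes. Members summed to 773151 UMIs in the control and 1036003 UMIs in the NTD library, with medians of 2934 and 3185.5 UMIs per barcode. The other neural barcodes were shallower, with medians of 2224 and 2428 UMIs. Levels are given as CPM, the counts of a gene scaled to the UMIs summed over a set of barcodes. Ratios are log2 ratios with 0.5 counts added. All intervals in parentheses are 95% intervals that cover counting error only, not the spread between embryos. For levels and their ratios they also leave out the spread between barcodes, so they are too narrow where few barcodes hold most UMIs. A doublet caller marked 41 control members (19.6%) and 44 NTD members (15.7%). It marked 15.0% and 11.8% of the other neural barcodes, and 16.4% and 12.6% of all barcodes, so members were marked more often in both libraries. The libraries shared 105 barcodes, 3 of them members in 1 library, and no barcode was a member in both.

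Members made up 3.16% (2.75 to 3.61) of the neural barcodes in the control and 3.30% (2.93 to 3.70) in the NTD library. The difference was 0.141 percentage points (−0.434 to 0.704), so a difference within that range was not detectable at this depth. Co-detection of 2 dorsal genes was no rarer in barcodes of 2 other cell types, to which the neural and exclusion criteria were not applied. Of barcodes with at least 3 of 8 endothelial genes, 3.30% of 637 control and 4.17% of 360 NTD barcodes met the dorsal criterion. Their medians were 2897 and 3194.5 UMIs. Among barcodes with at least 3 of 10 macrophage genes, 6 of 67 control (8.96%, 3.36 to 18.5) and 7 of 59 NTD barcodes (11.9%, 4.91 to 22.9) met it. The depth of these few barcodes was not compared. Read alone, the unthinned share is therefore no higher than in endothelial or macrophage barcodes. Endothelial barcodes held Msx1 in 9.58% and 13.6% and Bmp6 in 4.87% and 6.39%. Neural barcodes held Msx1 in 8.89% and 10.5% and Bmp6 in 4.12% and 3.91%. Lmx1a was found in 1.41% and 3.89% of endothelial and 2.78% and 4.04% of neural barcodes. Whether the endothelial UMIs were free RNA or the cells' own was not tested. When every barcode was thinned to 1500 UMIs and the rule applied again, 1.73% (1.39 to 2.13) of control and 1.41% (1.16 to 1.70) of NTD neural barcodes met it. Of endothelial barcodes, 2 of 607 control (0.329%, 0.0399 to 1.19) and 1 of 360 NTD (0.278%, 0.00703 to 1.54) met the dorsal criterion. The intervals were apart in the control library and overlapped in the NTD library. The thinned NTD share was 0.815 times the control share (0.617 to 1.08). Thinning left out 3919 control barcodes and 0 NTD barcodes that were under that depth.

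Most members sat at the threshold. Exactly 2 dorsal genes were detected in 151 control and 215 NTD members, and 3 or more in 58 and 65. Just outside the rule, 1034 control and 1512 NTD neural barcodes held exactly 1 dorsal gene, and in 46.1% and 49.9% of these it was Msx1. Members whose only dorsal genes were Msx1 and Bmp6, both also active outside the roof plate, numbered 24 in the control and 26 in the NTD library. The remaining members each held at least 1 of Lmx1a, Wnt1, Wnt3a, Gdf7 and Rspo1, and 72 control (34.4%) and 88 NTD members (31.4%) held at least 2 of these 5.

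Among the dorsal genes, Bmp6 was detected in 56.0% of control and 55.0% of NTD members, Msx1 in 53.6% and 50%, and Rspo1 in 40.7% and 44.3%. Lmx1a was detected in 40.7% (33.9 to 47.7) and 52.1% (46.1 to 58.1), while its level was 278 CPM in the control and 266 CPM in the NTD library. Wnt1 was detected in 24.4% (18.7 to 30.8) of control and 15.0% (11.0 to 19.7) of NTD members, at 93.1 and 52.1 CPM. Wnt3a was detected in 23.0% and 16.1%, at 73.7 and 52.1 CPM. Gdf7, the BMP ligand most restricted to the roof plate, was found in 4 members of each library. The commonest pair of the 21 possible was Lmx1a with Bmp6, in 57 control and 88 NTD members. Of the neural genes, Pax3, a transcription factor of the dorsal neural tube, stood at 565 and 324 CPM, and Sox2, a neural progenitor factor, at 97.0 and 163 CPM. In the other neural barcodes Pax3 was at 429 and 275 CPM and Sox2 at 111 and 183 CPM, so both genes had the same order of libraries there.

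Genes outside the rule were used to check the roof plate label. Of 15306 genes measured (at least 20 UMIs over members and other neural barcodes in each library), 5.05% were at least 1.5-fold higher in members in both libraries and 1.83% at least 1.5-fold lower in both. Of 24 other genes known from the roof plate, 23 were measured, 16 were higher in both libraries and none was lower. This list and the lists below were drawn up with earlier results of these data known, and the members were chosen from these same barcodes, so these counts describe the members and are no test. Gdf10 was at 0 in the members of both libraries.

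Secreted activators of Wnt signalling stood far higher in members than in the other neural barcodes. Rspo2, an R-spondin that strengthens Wnt signalling (chromosome 15, 43020794 to 43170826, minus strand, GRCm38), was at 332 CPM (293 to 376) in control members and 504 CPM (462 to 549) in NTD members. In the other neural barcodes it was at 25.1 and 45.7 CPM, so members were 13.3-fold and 11.0-fold higher. Rspo3, of the same family (chromosome 10, 29452416 to 29535867, minus strand), was at 200.5 CPM (170 to 235) and 272 CPM (241 to 306) in members and at 40.8 and 37.0 CPM in the others. Wnt8b, a Wnt ligand of the cortical hem, was at 85.4 CPM (66.0 to 109) and 104 CPM (85.5 to 126), against 8.33 and 16.9 CPM in the others. Wnt9a, another Wnt ligand, was at 45.3 CPM (31.5 to 63.0) and 22.2 CPM (14.1 to 33.3), against 3.91 and 3.76 CPM. In each of these 4 genes the member and other intervals lay far apart in both libraries.

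These levels climbed with the number of dorsal genes detected. In the control library Rspo2 was at 25.1, 85.8, 247 and 561 CPM in barcodes with 0, 1, 2 and 3 or more dorsal genes, and in the NTD library at 45.7, 154, 439 and 736 CPM. Rspo3, Wnt8b, Glis3 (a zinc finger transcription factor) and Zfp804b (a zinc finger gene) showed the same order in both libraries. Glis3 reached 880 CPM (757 to 1016) in control and 599 CPM (503 to 709) in NTD barcodes with 3 or more dorsal genes, from 49.0 and 56.8 CPM in barcodes with none. The genes had been picked for high levels in members against barcodes with no dorsal gene, so the climb is a description and no test. Median depth also climbed with the number of dorsal genes, from 2224 to 3203.5 UMIs in the control library, and its part in these levels was not tested.

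**Figure D1:**
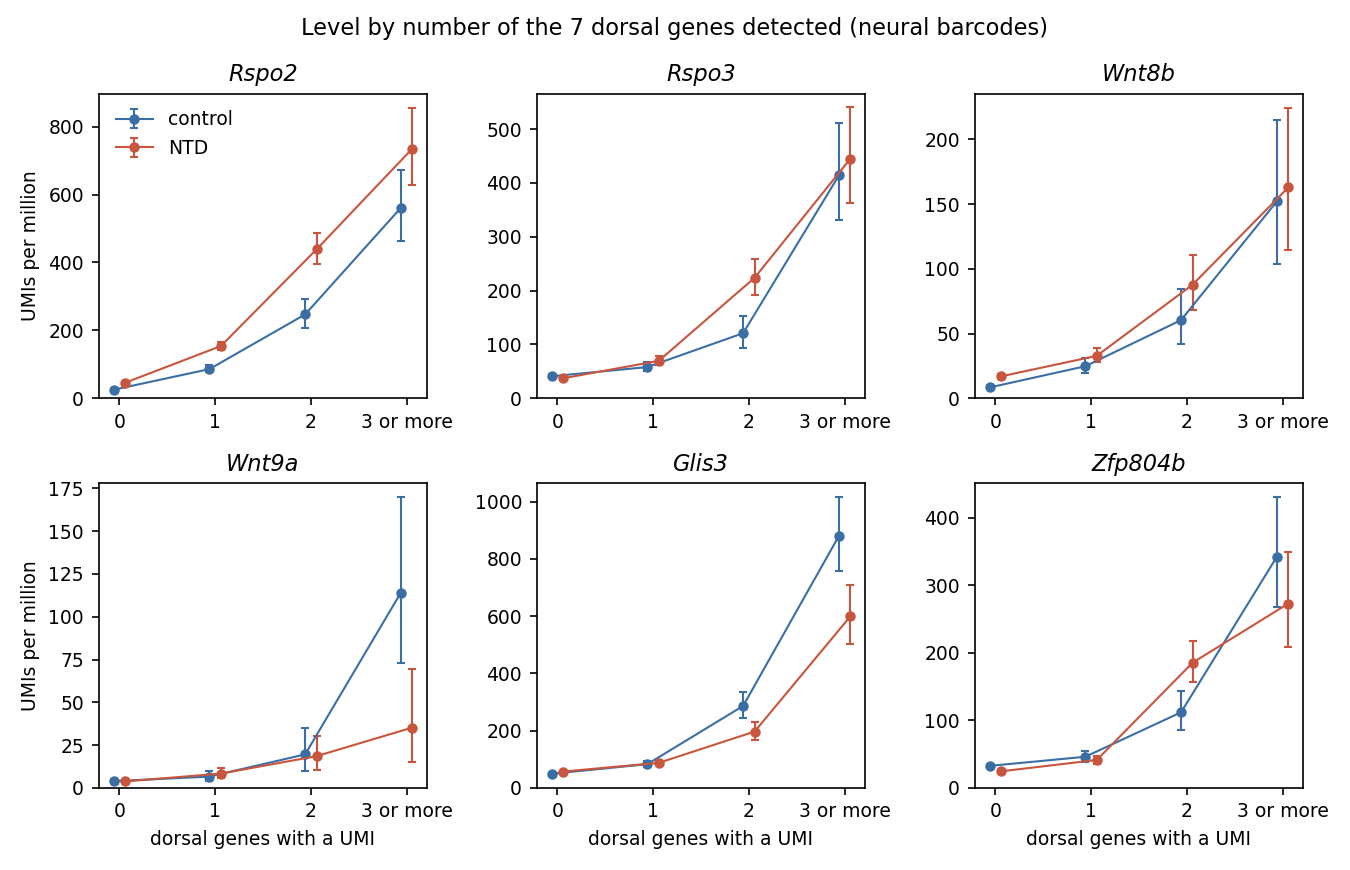
Level in CPM (vertical axis, linear) of 6 genes outside the rule in neural barcodes with 0, 1, 2 and 3 or more of the 7 dorsal genes (horizontal axis), for the control and the NTD library, with exact Poisson 95% intervals. Rspo2 climbs from 25.1 to 561 CPM in the control and from 45.7 to 736 CPM in the NTD library, and Wnt9a has wide intervals at its last step.

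Shares of barcodes placed these genes above free RNA. At 1500 UMIs per barcode, Rspo2 was found in 23.6% (17.9 to 30.1) of control and 36.4% (30.8 to 42.4) of NTD members, against 1.48% and 3.61% of endothelial barcodes. Rspo3 was found in 19.1% and 26.1% of members, against 3.46% and 3.33%. Wnt8b was found in 9.55% and 12.9% of members, against 0.494% and 1.11%. Without thinning, the 3 genes were found in 29.7% and 45.0%, 30.6% and 38.9%, and 14.8% and 22.1% of members.

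The remaining Wnt genes were uneven. Of 13 measured Wnt ligand genes, which here include the Wnt secretion factor Wls, 5 were higher in members of both libraries: Wnt2b, Wnt4, Wnt8b, Wnt9a and Wls. Wls was at 437 and 417 CPM in members, and its log2 ratio to the others was 1.36 in the control and 1.71 in the NTD library. Wnt2b rested on 11.6 and 8.69 CPM, with intervals of its ratio that held 0. Of 17 measured Wnt receptors and co-receptors none was higher or lower in both. Of 16 measured Wnt targets, Axin2, a feedback inhibitor, was higher by log2 1.27 and 0.85, and Sp5, a transcription factor, by 1.00 and 1.57 on 4 and 12 UMIs in members. Of 9 measured Wnt inhibitors, Dkk2 was higher by 0.66 and 1.66 and Dkk3 by 1.00 and 1.46.

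BMP genes outside the rule were also uneven. Of 7 measured BMP ligands, Bmp5 was higher by log2 0.82 in the control and 1.53 in the NTD library, and Bmp7 by 1.03 and 1.58. Bmp5 stood at 49.1 and 25.1 CPM in members and Bmp7 at 47.9 and 41.5 CPM. None of 10 measured BMP receptors and Smads was higher or lower in both libraries. Of 12 measured BMP targets, Smad6, an inhibitory Smad, was higher by 0.81 and 1.01, and Tfap2c, a transcription factor, by 1.50 and 1.03. The Id genes, common readouts of BMP signalling, were not past the fold: Id3 was at 197 and 274 CPM in members and its log2 ratio to the others was 0.26 and 0.23.

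Among transcription factors of the dorsal neural tube, Zic2, Zic4 and Zic5 were higher in members of both libraries. Zic5 was higher by log2 1.82 in the control and 1.60 in the NTD library, Zic4 by 1.15 and 1.54, and Zic2 by 0.85 and 1.90. Lmx1b, the paralog of Lmx1a, stood at 44.0 CPM in the control and 56.9 CPM in NTD members, and at 26.1 and 10.1 CPM in the others. Rfx4, a factor needed for dorsal midline structures, was at 331 and 264 CPM in members, against 175 and 146 CPM. Slit2, a secreted axon guidance protein, was at 1751 and 1125 CPM, against 602 and 362 CPM. Msx2, the paralog of Msx1, had log2 ratios of 0.93 in the control and 0.06 in the NTD library, on 14.2 and 12.5 CPM in members, and their difference was not tested.

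**Figure D2:**
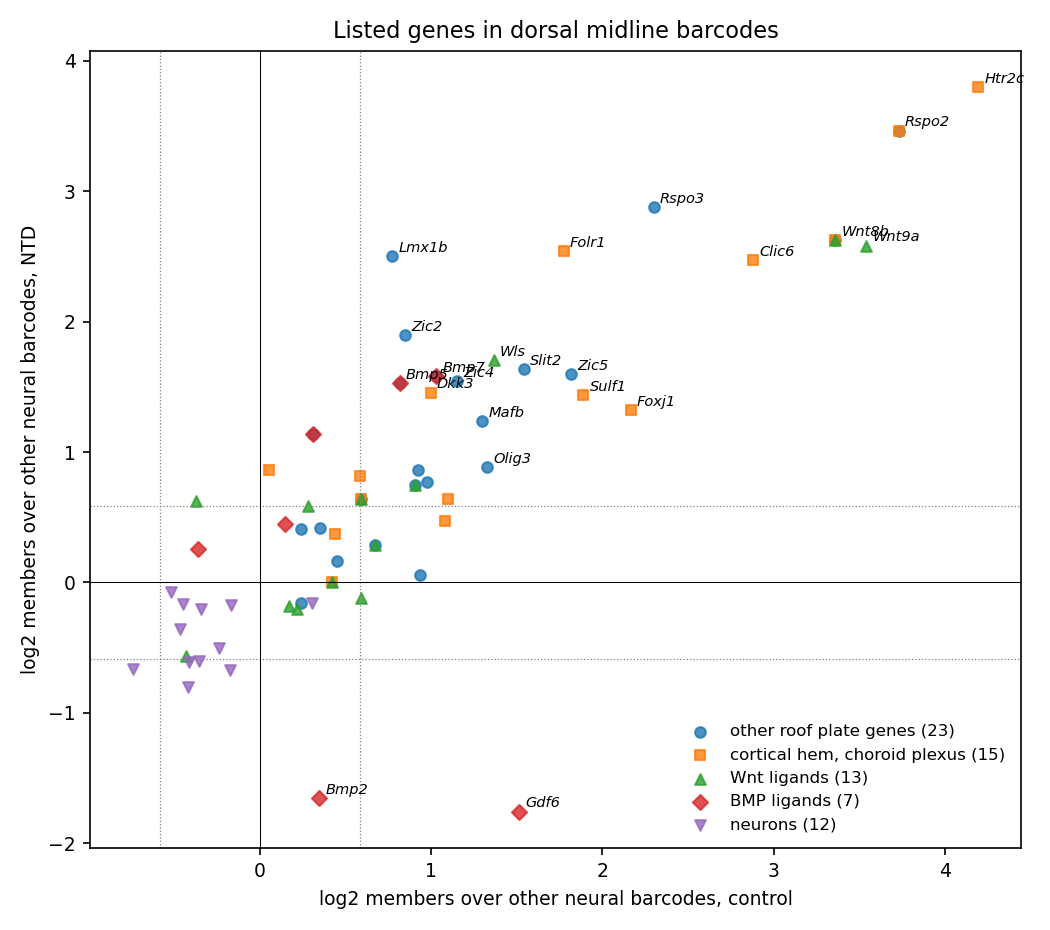
Log2 ratio of members over other neural barcodes in the control (horizontal axis) and the NTD library (vertical axis) for the measured genes of 5 lists, with dotted lines at 1.5-fold. Rspo2 and Wnt8b lie at the upper right, the neuron genes lie near or below 0 in both libraries, and Bmp2 and Gdf6 rest on few UMIs.

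Markers of neurons and of cycling cells did not set members apart. Of 12 neuron markers none was higher in both libraries and Syt1, a synaptic vesicle protein, was lower, with log2 ratios of −0.74 and −0.66. None of 30 S phase genes, 30 G2/M genes or 17 Notch pathway genes was past the fold in both libraries. At 1500 UMIs per barcode, Mki67 or Top2a was found in 53.3% (46.1 to 60.4) of control and 63.6% (57.6 to 69.2) of NTD members, against 58.7% and 57.9% of the other neural barcodes and 51.2% and 52.2% of endothelial barcodes. The 6 genes named for being lowest in members were Thsd7b, Ndst3, Srrm3, Zc3hav1l, Tfpt and Emcn. Thsd7b was at 31.0 and 24.1 CPM in members against 143 and 84.0 CPM in the others, and Emcn, an endothelial gene, at 15.5 and 3.86 CPM against 33.6 and 21.4 CPM.

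A few members held most UMIs of some genes. The genes with the highest ratios to the other neural barcodes included Gmnc, which starts the multiciliated cell program, Cdc20b, a gene of multiciliated cells, and Htr2c, the serotonin receptor of choroid plexus. Their log2 ratios were 4.24 and 3.48 for Gmnc, 4.83 and 3.504 for Cdc20b, and 4.20 and 3.80 for Htr2c (control, then NTD). Few barcodes made these values. All 75 Cdc20b UMIs of control members came from 5 barcodes, and 72 of them from 3. In the NTD library 8 members held the 44 Cdc20b UMIs. Htr2c was found in 6 members of each library and Gmnc in 14 and 12.

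Members with at least 3 UMIs summed over these 3 genes, a set chosen after the values were seen, numbered 10 in the control (4.78%, 2.32 to 8.62) and 7 in the NTD library (2.50%, 1.01 to 5.08). Among the other neural barcodes 10 of 5379 and 5 of 6699 met the same condition, or 0.186% and 0.0746%. Over all barcodes of the libraries 53 and 52 met it, so most of them lie outside the members. The following values describe this set and are no test. Trpm3, an ion channel gene of choroid plexus, was at 3611 CPM (3036 to 4263) in the 10 control and 6079 CPM (5219 to 7041) in the 7 NTD barcodes, and at 191 and 156 CPM in the remaining members. Mcidas, a partner of Gmnc in multiciliogenesis, was found in 4 of 10 and 4 of 7 barcodes, and in 0 of 199 and 1 of 273 remaining members. Ttr, the transthyretin carrier made by choroid plexus, was at 831 and 1981 CPM, against 84.4 and 35.8 CPM. Clic6, a chloride channel gene of choroid plexus, was at 208 and 205 CPM, against 8.17 and 6.95 CPM.

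The same barcodes were high in Lmx1a, at 857 and 546 CPM against 248 and 258 CPM. Of the progenitor genes, 2 were on the lower side there: Rfx4 was at 77.9 and 102 CPM against 344 and 269 CPM, and Pax3 at 104 and 102 CPM against 589 and 331 CPM. The intervals of Rfx4 and of Pax3 were apart in the control library and overlapped in the NTD library. Sox2 was at 77.9 and 171 CPM against 98.0 and 163 CPM, and Hes5 at 104 and 137 CPM against 162 and 251 CPM. The intervals of Sox2 and of Hes5 overlapped in both libraries. Rspo1 was found in 1 of the 10 and 1 of the 7 barcodes. Rspo2 was at 234 and 376 CPM, with intervals that overlapped those of the remaining members. A Hox UMI was present in 7 of the 10 control barcodes and 0 of the 7 NTD barcodes. Without such barcodes in members and others, Trpm3 had log2 ratios to the other neural barcodes of 1.74 in the control and 1.35 in the NTD library, while Rspo2 and Wnt8b stayed within the intervals of their ratios over all members.

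**Figure D3:**
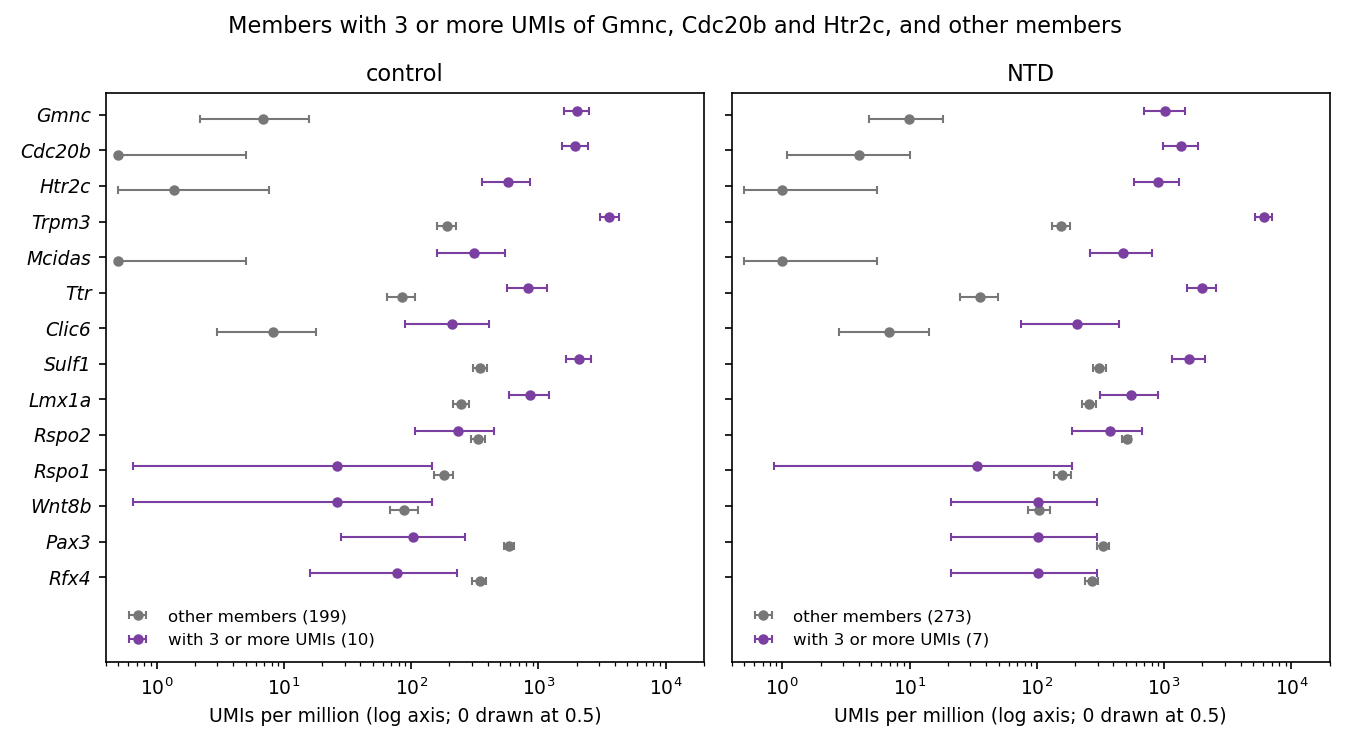
Level in CPM (horizontal log axis, values of 0 drawn at 0.5) of 14 genes in members with 3 or more UMIs of Gmnc, Cdc20b and Htr2c and in the other members, in the control (10 and 199 barcodes) and the NTD library (7 and 273), with exact Poisson 95% intervals. Trpm3, Mcidas, Ttr and Clic6 lie far to the right in the small set and Rfx4 lies to the left, with overlapping intervals in the NTD library.

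Of 18 genes listed for cortical hem and choroid plexus, 15 were measured and 10 were higher in members of both libraries. They included Folr1, the folate receptor of choroid plexus, at 19.4 and 17.4 CPM against 5.83 and 3.04 CPM, and Sulf1, a heparan sulfatase, at 432 and 346 CPM against 117 and 128 CPM. The share of members with a Ttr UMI, 25.8% in the control and 14.3% in the NTD library, was no higher than in endothelial barcodes (25.4% and 11.9%) and is read as background. The high Ttr level of the small set above is a level per barcode and not this share.

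Detection of position genes differed between the libraries in members and in other barcodes. A UMI of any listed Hox gene, which mark hindbrain and spinal cord, was found in 72.2% of control and 18.6% of NTD members. In endothelial barcodes the shares were 69.5% and 16.9%, with overlapping intervals, so a Hox UMI alone does not place a member. Levels differed more: Hoxc4 was at 124 CPM in control members against 46.4 CPM in endothelial barcodes, and at 12.5 against 2.85 CPM in the NTD library. Otx2, a forebrain and midbrain factor, was above that background: at 1500 UMIs it was found in 11.6% (7.47 to 16.8) of control and 15.7% (11.7 to 20.5) of NTD members, against 4.40% and 10.6% of the others and 1.15% and 1.94% of endothelial barcodes. Without thinning, Otx2 was found in 18.7% and 28.9% of members. Emx2 or Lhx2, forebrain factors, were found in 7.04% and 13.6% of thinned members, against 5.27% and 9.44% of endothelial barcodes, with overlapping intervals.

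Ventral midline genes were checked because Lmx1a also marks the midbrain floor plate. Foxa2 or Shh, which mark the floor plate, were found in 2.87% (1.06 to 6.14) of control and 11.1% (7.65 to 15.3) of NTD members, against 2.04% and 6.39% of endothelial barcodes. At 1500 UMIs the shares were 1.01% and 4.64% (2.50 to 7.81), against 1.15% and 3.06% (1.54 to 5.40), so no excess over endothelial barcodes was detectable at this depth. The other neural barcodes, which were shallower, stood at 2.45% and 5.40% (4.87 to 5.97) without thinning, so the NTD members were above them. At 1500 UMIs the others were at 1.58% and 3.05% (2.65 to 3.49), and the NTD intervals overlapped. The 31 NTD members with a Foxa2 or Shh UMI held Lmx1a at 474 CPM and Rspo1 at 77.7 CPM, against 237 and 166 CPM in the other NTD members, which is a description, since both are rule genes. Of 10 measured floor plate and dopamine neuron genes 2 were higher in members of both libraries, with medians of 0.24 and 0.59. They were Slit1 and Corin, a protease gene of the midbrain floor plate, which was higher by log2 0.81 in the control and 2.81 in the NTD library. Ferd3l was at 0 in the members of both libraries, Foxa1 at 0 in the control, and Th and Pitx3 at 0 in the NTD library. Neural crest genes were not a feature of members: Sox10 or Foxd3 was found in 3.35% and 2.50%, against 3.14% and 1.94% of endothelial barcodes.

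**Figure D4:**
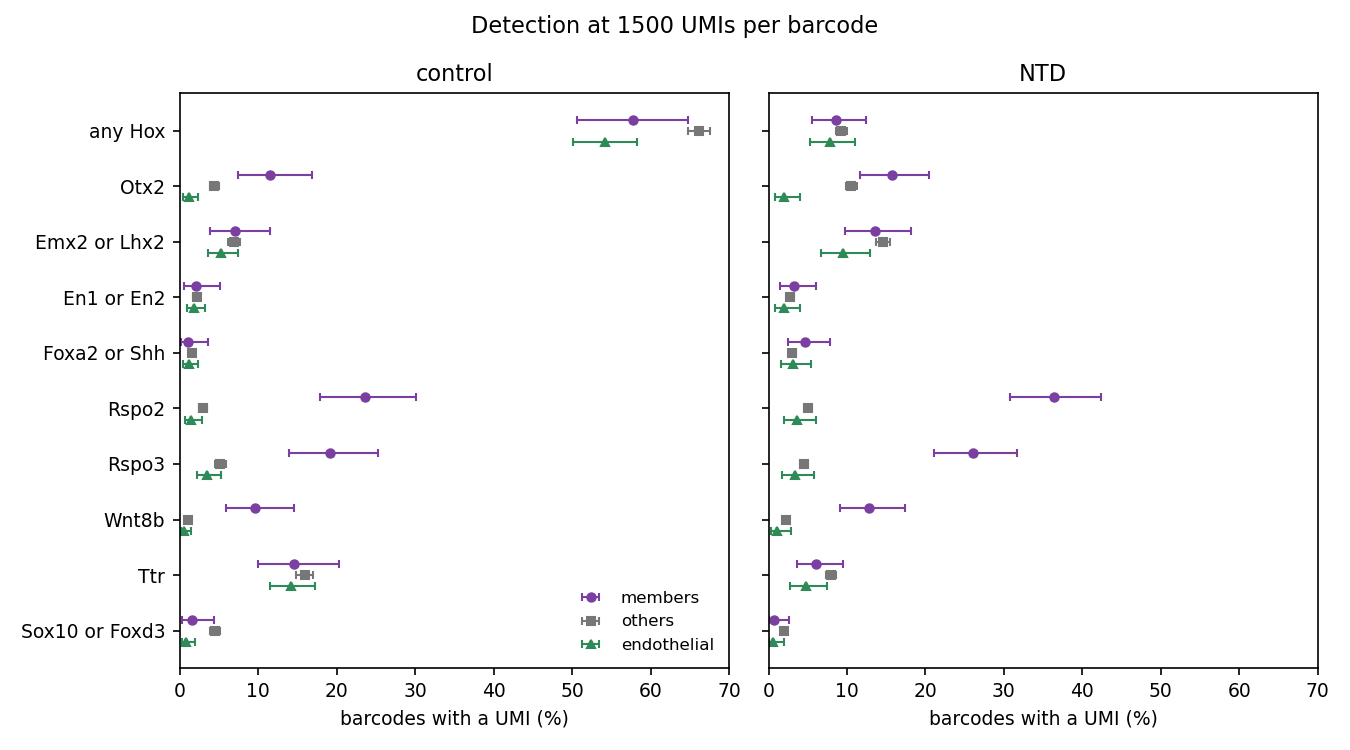
Share of barcodes with a UMI (horizontal axis, percent) for 10 genes or gene panels after each barcode was thinned to 1500 UMIs, in members, other neural barcodes and endothelial barcodes of the control and the NTD library, with exact binomial 95% intervals. Rspo2, Rspo3, Wnt8b and Otx2 separate members from endothelial barcodes, while Hox, Ttr and Sox10 or Foxd3 do not.

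Wnt1, a rule gene given here as a description, differed with Hox detection among control members. It was found in 30.5% (23.2 to 38.5) of 151 control members with a Hox UMI and in 8.62% (2.86 to 19.0) of 58 without. In the NTD library the shares were 11.5% (4.35 to 23.4) of 52 and 15.8% (11.3 to 21.2) of 228. Among members without a Hox UMI, the NTD share was the higher (36 of 228 against 5 of 58), but the intervals overlapped. These control members were also shallower, at a median of 2555.5 against 3143.5 UMIs, and Wnt1 stood at 46.3 and 55.3 CPM. No change in the order of the libraries is read from these shares. Rspo2 was at 217 CPM in control members with a Hox UMI and 735 CPM in those without, and at 391 and 535 CPM in the NTD library. A Hox UMI can be free RNA, as the endothelial shares show, and members with one were deeper, at medians of 3125 against 2555.5 UMIs in the control.

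For the NTD library against the control library, 7143 genes with at least 50 UMIs over the members of both were compared. Of these, 9.8% were at least 1.5-fold higher and 13.9% at least 1.5-fold lower in NTD members (700 and 996 genes). The split depends on scaling: with TMM scaling, which moved every log2 ratio by 0.16, 1109 genes were higher and 589 lower, so that higher genes made up 65.3% of those past the fold in place of 41.3%. The median log2 ratio over all compared genes was −0.13, or 0.03 with TMM, and ratios below are read against that median. Counts within gene lists below are read beside the 9.8% and 13.9% of all genes. Ratios between −0.16 and 0, such as that of Wls, change sign with TMM. Ribosomal protein genes took 6.45% of UMIs in control and 11.3% in NTD members.

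The 12 lowest genes in NTD members were Hox genes, the Hox antisense RNA Hoxaas3, Apoa1, Afp and Glra1, and all 12 were also lower in the other neural barcodes of the NTD library. Hoxc6 stood at 77.6 CPM in the control and 0.965 CPM in NTD members (60 UMIs and 1), and Hoxa9 at 66.0 and 0.965 CPM. Hoxb3, Hoxd3 and Hoxc4 had log2 ratios of −3.87, −3.28 and −3.26, and −3.64, −3.55 and −4.54 in the other neural barcodes. Hoxc4 was thus less far apart in members, by 1.28 (0.39 to 2.17). Apoa1, an apolipoprotein of liver and yolk sac, was at 73.7 CPM in control members and at 0 in NTD members, which is at least 25.5-fold lower at the floor of 3 counts over the NTD members. Afp, alpha-fetoprotein of the same tissues, was at 173 and 4.83 CPM in members, at 213 and 3.76 CPM in the others and at 202 and 3.99 CPM in endothelial barcodes. Its levels were thus alike across cell types within each library.

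Glra1, a glycine receptor subunit gene, differed more over all members than over all other neural barcodes. It was at 248 CPM (214 to 286) in control and 25.1 CPM (16.4 to 36.8) in NTD members, and at 212 and 52.96 CPM in the other neural barcodes. The log2 ratio was −3.28 (−3.96 to −2.71) in members and −1.998 in the others, a difference of −1.28 (−1.88 to −0.69). Glra1 also went with Hox detection: control members with a Hox UMI stood at 313 CPM and those without at 23.2 CPM. Among members without a Hox UMI its log2 ratio was −0.88, at 23.2 and 13.5 CPM, found in 2 control and 6 NTD members. The other neural barcodes without a Hox UMI stood at 85.5 and 40.1 CPM, so there the difference was no larger in members.

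The 12 highest genes in NTD members were Xist, Tsix, 4 histone genes, Six3os1, Napepld, Bola2, Uchl1, Fabp7 and Plcxd3. Xist, the RNA that silences an X chromosome in female cells, stood at 242 CPM in the control and 1177 CPM in NTD members, a log2 ratio of 2.28 (2.06 to 2.51). In the other neural barcodes it was at 83.7 and 848 CPM, a ratio of 3.34. Control members thus held more Xist than the other control barcodes: 18.7% of them had an Xist UMI, against 6.77% of the others and 7.85% of endothelial barcodes. Tsix, which overlaps Xist on the opposite strand, was at 49.1 and 246 CPM. The labels used here do not give the sex of the embryos, and sex and group cannot be told apart. Hist1h2ae, a histone gene, was higher by log2 2.21 (1.40 to 3.22), and Hist1h3c by 1.80. Fabp7, a fatty acid binding protein of radial glia, was at 129 and 365 CPM, a ratio of 1.49 that was 1.36 in the others. Uchl1, a neuronal ubiquitin hydrolase, was at 38.8 and 112 CPM.

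**Figure D5:**
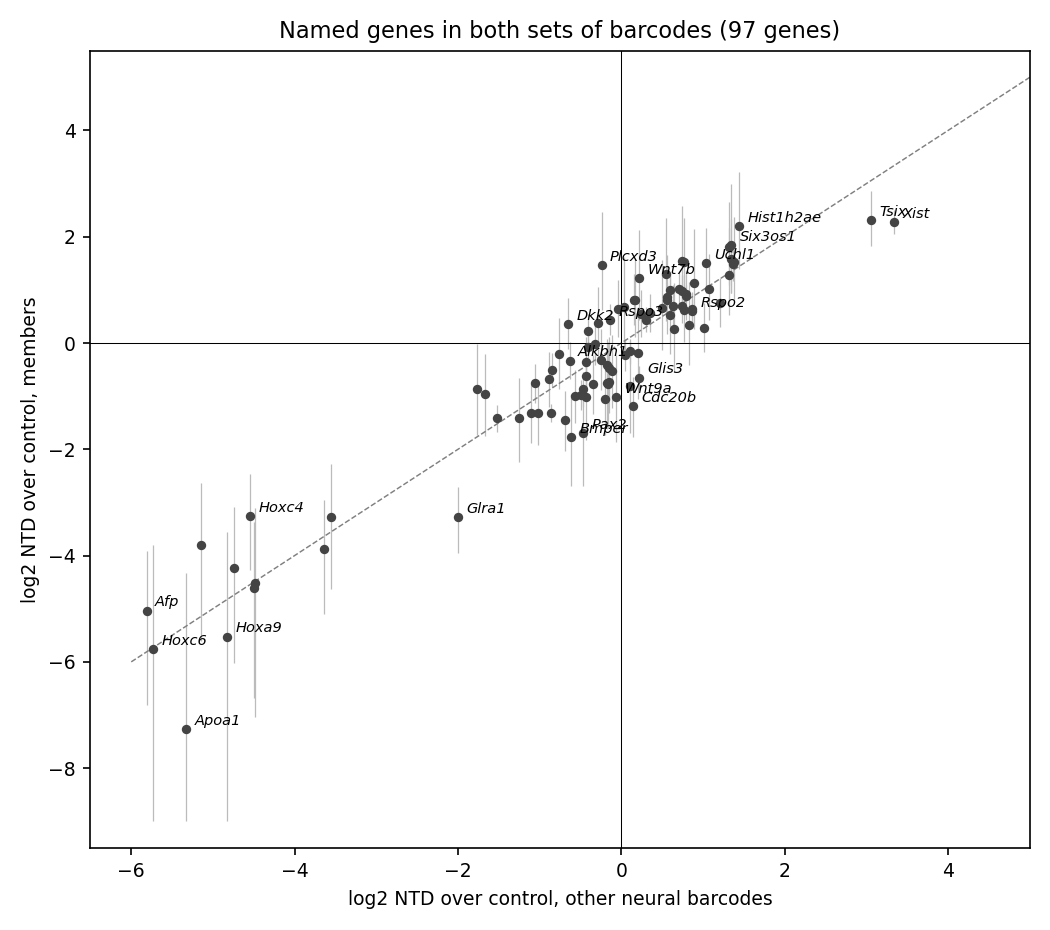
Log2 ratio of NTD over control in members (vertical axis, with 95% intervals cut at −9) against the same ratio in other neural barcodes (horizontal axis) for 97 named genes; the dashed line marks equal ratios. Hox genes, Afp and Xist are far from 0 on both axes, Glra1 lies below the line and Plcxd3 above it, and Apoa1, at 0 UMIs in NTD members, is drawn at its value with 0.5 counts added.

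Of the 97 named genes measured in both sets, 30 had a member ratio whose difference from the other neural barcodes excluded 0 within counting error, 14 above and 16 below. Over all 7143 genes the share was 10.4%, and 24 of the named genes had been picked for extreme ratios in members, so nothing is read from the count. Pax2, a factor of the midbrain-hindbrain boundary, was at 47.9 and 14.5 CPM in members, with a ratio of −1.70 against −0.47 in the others. Bmper, a secreted BMP regulator, was at 56.9 and 16.4 CPM, −1.77 against −0.62. Plcxd3, a phospholipase-like gene, was at 18.1 and 51.2 CPM, 1.46 against −0.24. Wnt7b was at 22.0 and 52.1 CPM, 1.22 against 0.22, and Dkk2 at 77.6 and 99.4 CPM, 0.35 against −0.65. Several of these ratios depended on the choice of members. Among members without a Hox UMI Wnt7b had 0.20 and Dkk2 −0.14, after thinning Wnt7b had 0.34 and Pax2 −0.31, and with at least 3 dorsal genes Plcxd3 had 0.13.

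The Wnt activators that mark members did not move as a group. Rspo2 had a log2 ratio of 0.60 (0.38 to 0.82) in members and 0.86 in the others, and among members without a Hox UMI it was −0.46. Where the rule was applied again after thinning it was −0.094. Rspo3 had 0.44 (0.15 to 0.73), and 0.01 among members without a Hox UMI. Wnt8b had 0.28 (−0.17 to 0.75), −0.35 among members without a Hox UMI and −1.27 after thinning. Wls had −0.07 (−0.28 to 0.14), and Wnt9a −1.02 (−1.85 to −0.23). Wnt4 had −1.41 (−2.23 to −0.65), close to −1.25 in the others. Of 7 measured Wnt ligand genes 1 was past the fold upward and 2 downward, with a median of −0.07. Axin2 was at 84.1 and 49.2 CPM, a ratio of −0.77 (−1.33 to −0.22), and Glis3 at 448 and 285 CPM, −0.65 (−0.88 to −0.42) against 0.21 in the others.

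On the BMP side, Bmp5 had a log2 ratio of −0.96 (−1.75 to −0.21), which was 0.22 after thinning, and Bmp7 −0.21 (−0.87 to 0.47). They were the only ligands outside the rule with enough UMIs. Of 9 measured receptors and Smads 2 were lower and none higher, with a median of −0.22, beside 13.9% of all genes lower. These were Bmpr1b, at 335 and 171 CPM (−0.97, −1.26 to −0.69), and Bmpr1a, at 357 and 231 CPM (−0.63, −0.89 to −0.37). With TMM scaling 1 of the 9 was lower. Of 8 measured BMP targets, Id4 was higher (1.02, 0.42 to 1.68) and Smad6 lower (−0.68, −1.20 to −0.17), with ratios of 1.08 and −0.88 in the others. With TMM scaling 3 of the 8 were higher and none lower. Of the 14 measured roof plate genes outside the rule 2 were higher (Rspo2 and Zic2) and 4 lower (Bmp5, Wnt4, Slit2 and Cdh6), with a median of −0.23. With TMM scaling 3 were higher and 3 lower.

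Cell cycle genes were mostly within the fold. Of 27 measured S phase genes 4 were higher and none lower, with a median of 0.19, and of 30 G2/M genes 4 were higher and none lower, with a median of 0.20. Over all genes 9.8% were higher and 13.9% lower, with a median of −0.13, so both list medians stood above it. With TMM scaling 7 of the 27 and 7 of the 30 were higher, beside 15.5% of all genes. Dut, a nucleotide pool enzyme, was at 184 and 363 CPM, and Ube2c, a mitotic ubiquitin ligase partner, at 181 and 367 CPM. The medians of both lists in the other neural barcodes were 0.15 and 0.16. Of 4 measured dorsal progenitor factors 3 were higher: Irx3, Neurog2 and Pax6. Neurog2, a proneural factor, was at 16.8 and 42.5 CPM (1.30, 0.42 to 2.35), and Pax6, a progenitor factor, at 71.1 and 125 CPM (0.80 against 0.16 in the others), and after thinning their ratios were 0.38 and 0.25. Of 7 measured Notch pathway genes Hes5 was higher (0.64) and Notch1 (−0.73) and Dll1 (−0.81) lower.

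Genes of the study's own question were mostly within the fold. Alkbh1, the demethylase that the study examines, stood at 178 CPM in the control and 142 CPM in NTD members (−0.33, −0.68 to 0.01), and its ratio in the others was −0.63. Of 18 measured genes of DNA N6-methyladenine and H3K9 methylation, Kdm4b, a histone demethylase, was lower (−1.02) and none was higher. Of 14 measured folate and one-carbon genes 3 were higher and 1 lower, with a median of −0.08. Of 23 measured genes whose loss disturbs neural tube closure 2 were higher and 4 lower, and 3 and 3 with TMM scaling. Over all genes 9.8% were higher and 13.9% lower, and nothing is read from these counts. Vcl, a focal adhesion gene, was at 94.4 and 37.6 CPM (−1.32, −1.93 to −0.75, against −1.02 in the others). Celsr1, a planar polarity receptor, was at 68.6 and 32.8 CPM (−1.06 against −0.21 in the others).

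Other cell types were checked by summed marker levels. Over 8 endothelial markers members held 151 CPM in the control and 54.1 CPM in the NTD library, and 5 and 1 members held 3 or more of them. Over 12 neural crest markers the sums were 225 and 132 CPM, with 8 and 6 members at 3 or more genes, and over 14 mesenchyme markers 532 and 497 CPM, with 42 and 46. Over 12 epithelial markers the sums were 109 and 86.9 CPM, with 2 and 1, and over 10 macrophage markers 54.3 and 33.8 CPM, with 1 and 1. The other neural barcodes held 204 and 117 CPM of endothelial and 288 and 198 CPM of neural crest markers. They held 791 and 534 CPM of mesenchyme, 130 and 101 CPM of epithelial and 46.6 and 44.4 CPM of macrophage markers. Of these sums only that of macrophage markers in the control was higher in members. Krt14 was at 0 in control members, and Krt5, Grhl3, Ptprc and C1qa were at 0 in NTD members. Haemoglobin and other erythroid genes summed to 9121 and 12243 CPM in members, below the 13138 and 14132 CPM of the other neural barcodes. Every member held 3 or more of these genes. Their part in the differences between the libraries was not tested, except that without barcodes holding 3 or more crest, mesenchyme or epithelial markers the log2 ratio of Rspo2 was 0.33, of Wnt9a −1.07 and of Glra1 −3.64.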

How the data were processed

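Both libraries were 10x Chromium 3' single-cell RNA libraries. The authors deposited UMI counts without normalization. Per the file headers the count software was Cell Ranger 7.0.1, and the submitters' processing notes name STAR and mm10. The deposited barcodes were used without a further cell filter. Doublets were called with Scrublet (scanpy 1.11.5) at an expected 0.8% per 1000 barcodes and kept, with their removal as an alternative. At the default expected rate of scanpy no barcode was called, so the calls depend on the rate set.

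UMI counts of the members were summed per library and scaled to CPM. With 1 library per group there was no test, and genes are described by a 1.5-fold difference. Intervals are exact Poisson for levels, exact Clopper-Pearson for shares, conditional binomial for ratios and Newcombe for differences of shares. Thinning drew 1500 UMIs per barcode. Coordinates are from GENCODE on GRCm38, to which 99.8% of gene IDs matched. TMM factors came from edgeR 4.0.16, used for scaling only.

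Named genes were the 12 highest and 12 lowest in NTD members with at least 50 CPM in a library, the 12 highest and 6 lowest in members against the others with at least 20 CPM, and up to 3 genes per list. Genes named outside this rule, such as Mcidas, Ttr, Clic6 and Sulf1, were chosen after their values were seen. The members and all lists were chosen with earlier results of these data known. The comparisons of summed levels, NTD against control and members against others, were tried on simulated Poisson counts, which have no spread between barcodes. The shares, thinning, doublet calls and intervals for differences between members and others were not tried on simulated data.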

Additional observations from a re-analysis of the deposited data

Results flagged for a closer look

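Among the named genes, the ratio of members over other neural barcodes had opposite signs in the 2 libraries, with both intervals excluding 0, for Glra1 and Bmpr1b. Glra1 was higher in control members, with a log2 ratio of 0.23, and lower in NTD members, with −1.05, a difference of −1.28. Bmpr1b had 0.25 in the control and −0.22 in the NTD library, a difference of −0.47. With 1 library per group neither difference was tested. Bmpr1b was at 346 CPM in control members with a Hox UMI and 295 CPM in those without, and at 301 and 135 CPM in NTD members. The other neural barcodes stood at 292 and 241 CPM in the control and 214 and 197 CPM in the NTD library. With a Hox UMI, Bmpr1b was thus higher in members of both libraries. Without one it was higher in control members and lower in NTD members. Without a Hox UMI, Glra1 was lower in members of both libraries, at 23.2 and 13.5 CPM against 85.5 and 40.1 CPM in the others. The part of position in these values was not tested.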

How the results depend on the processing

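The NTD share of neural barcodes over the control share was 1.04, 0.874 with at least 3 dorsal genes and 0.815 after thinning to 1500 UMIs. Counts under each alternative are separate totals over the genes measured there. For genes higher and lower in NTD members they were 700 and 996 as reported, 344 and 310 with at least 3 dorsal genes, 213 and 159 after thinning, 1109 and 589 with TMM and 1230 and 500 with median-ratio scaling. With at least 20 UMIs there were 1078 and 1930 of 10467 (10.3% and 18.4%). With at least 200 there were 315 and 186 of 2109 (14.9% and 8.82%), and with at least 1 there were 3334 and 5578 of 18951 (17.6% and 29.4%). For genes higher and lower in members of both libraries they were 773 and 280 of 15306 as reported (5.05% and 1.83%). With at least 3 dorsal genes they were 1493 and 623 of 15189 (9.83% and 4.10%). After thinning they were 1198 and 560 of 13587 (8.82% and 4.12%). With at least 50 UMIs in each library they were 425 and 154 of 13205 (3.22% and 1.17%). Without Msx1 in the rule 535 of 15246 were lower (3.51%). Without Hox-positive barcodes, an alternative chosen after seeing the data, 508 of 11949 were higher (4.25%). Of 1779 values for single genes and lists under alternatives, 1531 stayed within the error, 234 moved and 14 reversed. For NTD over control, thinning reversed Ndst3 (−0.31), Bmp5 (0.22), Rspo2 (−0.094) and Lrfn2 (0.62). Members without a Hox UMI reversed Srrm3 (2.01), Meis1 (0.0864), Polk (1.46), Cdh6 (0.0035), Rspo2 (−0.46) and Dll1 (0.24). Without barcodes holding 3 or more UMIs of Gmnc, Cdc20b and Htr2c, chosen after seeing the data and a filter on these same genes, Cdc20b (2.72) and Gmnc (0.48) reversed, as did members over others for Cdc20b in the control (−2.21) and Htr2c in the NTD library (−0.36). The causes were not tested, beyond fewer barcodes and genes in the stricter settings. No paired analysis was possible because each group has 1 library.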
